A study of Mus musculus with 34 samples.

Results

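The genes described here are the nuclear genes of respiratory complex I, with its assembly factors, and the 13 protein-coding genes of the mouse mitochondrial genome. They were chosen by name (symbols beginning Ndufa, Ndufb, Ndufc, Ndufs or Ndufv, or mt-Nd, mt-Co, mt-Atp or mt-Cytb) and by a total of 20 or more UMIs, the unique tags that each mark 1 captured RNA molecule, over 10 single-cell libraries. This gave 60 genes of 32285 listed, of which 19546 reached the same total. Of the 60 genes, 47 are nuclear: 7 core subunits, 30 accessory subunits, 8 assembly factors, Ndufa4, now assigned to complex IV, and its relative Ndufa4l2. The other 13 are mitochondrial-encoded, 7 for complex I, 3 for complex IV, 2 for ATP synthase and 1 for complex III, so the set reaches beyond complex I. Every gene passed the total, the lowest being Ndufa4l2 with 2488 UMIs.

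Complex I takes electrons from NADH, passes them to ubiquinone and pumps protons across the inner mitochondrial membrane. Its core subunits hold the flavin and the iron-sulfur clusters or, where they are mitochondrial-encoded, form the proton channels of the membrane arm, and accessory subunits surround that core. The mitochondrial genome is transcribed separately from the nuclear genes, so the products of both genomes must be brought together by assembly factors. Neutrophils are known for relying on glycolysis more than on respiration, and doxorubicin, a chemotherapy drug, damages DNA in the nucleus and in mitochondria.

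The tumours were MMTV-Wnt1 mammary tumours, in which the Wnt1 oncogene is driven by a mammary virus promoter, transplanted into C57BL6j mice. CD45-positive cells came from 2 libraries taken 48 h after the last of 5 consecutive doses of 4 mg/kg doxorubicin and from 2 libraries of untreated tumours. CD4/8-positive cells came from 6 libraries, 1 per arm. In 4 of these arms the same doxorubicin course was followed by 3 antibody doses 72 h apart and harvest 24 h after the last, with anti-PD1 (200 ug), anti-CTLA4 (200 ug), both antibodies, or IgG control (400 ug). The other 2 arms were 48 h after doxorubicin alone and untreated. PD1 and CTLA4 each restrain T cells, and antibodies that block them are used as immunotherapy. The labels do not say whether replicates came from separate animals, so p-values measure the spread between these libraries, which may be technical. With 2 libraries against 2, an exact two-sided permutation test cannot go below p = 0.333, and sums over a gate are given below without a test.

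The CD45 libraries held 16908180 and 35199903 UMIs after doxorubicin and 69108468 and 36558187 untreated, and the CD4/8 libraries held 47843716 to 93748407. Cells with 500 or more UMIs and 200 or more genes were kept, 1527 and 4078 after doxorubicin and 3862 and 1849 untreated in the CD45 libraries. No cell was removed for its mitochondrial share, since that share is measured here, and no cell was shared between libraries. Cells entered a gate when at least 3 of 8 markers of a cell type had a UMI. That number also had to be at least 2 more than for any other of the 10 marker lists. The gates do not follow the sort labels: 113 and 290 epithelial cells after doxorubicin, against 717 and 208 untreated, were in the CD45-positive libraries. The macrophage gate held 226 and 748 cells after doxorubicin and 1130 and 602 untreated, and the T gate held 120 and 390 against 915 and 290. Neutrophil cells were 49.9 and 43.8% of kept cells after doxorubicin (762 and 1787 cells), against 8.26 and 4.98% untreated (319 and 92 cells).

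Because of that shift, sums over a whole library mix gates in different shares. In whole CD45 libraries the 47 nuclear genes summed to 45.9 and 57.1 UMIs per 10000 after doxorubicin, against 72.8 and 68.4 untreated. The mitochondrial-encoded genes summed to 278.0 and 330.5 per 10000 after doxorubicin, against 419.2 and 341.8 untreated. In such sums, fewer cells of a type and less RNA per cell cannot be told apart. In edgeR's quasi-likelihood test, with p-values adjusted by Benjamini-Hochberg over all genes tested and called at 0.05, Ndufa9 alone passed in the whole libraries. Ndufa9, an accessory subunit near the quinone site, had 0.313 and 0.376 per 10000 after doxorubicin, against 0.611 and 0.573 untreated (log2 change -0.90, SE 0.182, adjusted p = 0.0482 by edgeR, 2.24% of all genes called lower). Leaving out any 1 library took its adjusted p to 0.0962 to 0.154, so what follows is within gates.

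Within gates of the CD45 libraries, the sums that lay apart between the groups differed by genome and by cell type, without a test. The nuclear genes summed lower in both doxorubicin libraries than in both untreated libraries in the macrophage, T and epithelial gates, and overlapped in the neutrophil gate. The mitochondrial-encoded genes summed lower in both doxorubicin libraries in the neutrophil gate, and overlapped in the other 3 gates. By edgeR the median nuclear log2 changes were -0.24 (neutrophil), -0.32 (macrophage), -0.30 (T) and -0.51 (epithelial). No nuclear gene was called in the tests between gates. The CD4/8 pair, given below, had another pattern. There the mitochondrial-encoded sum was lower in the epithelial, T and macrophage gates and not in the neutrophil gate.

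**Figure D1:**
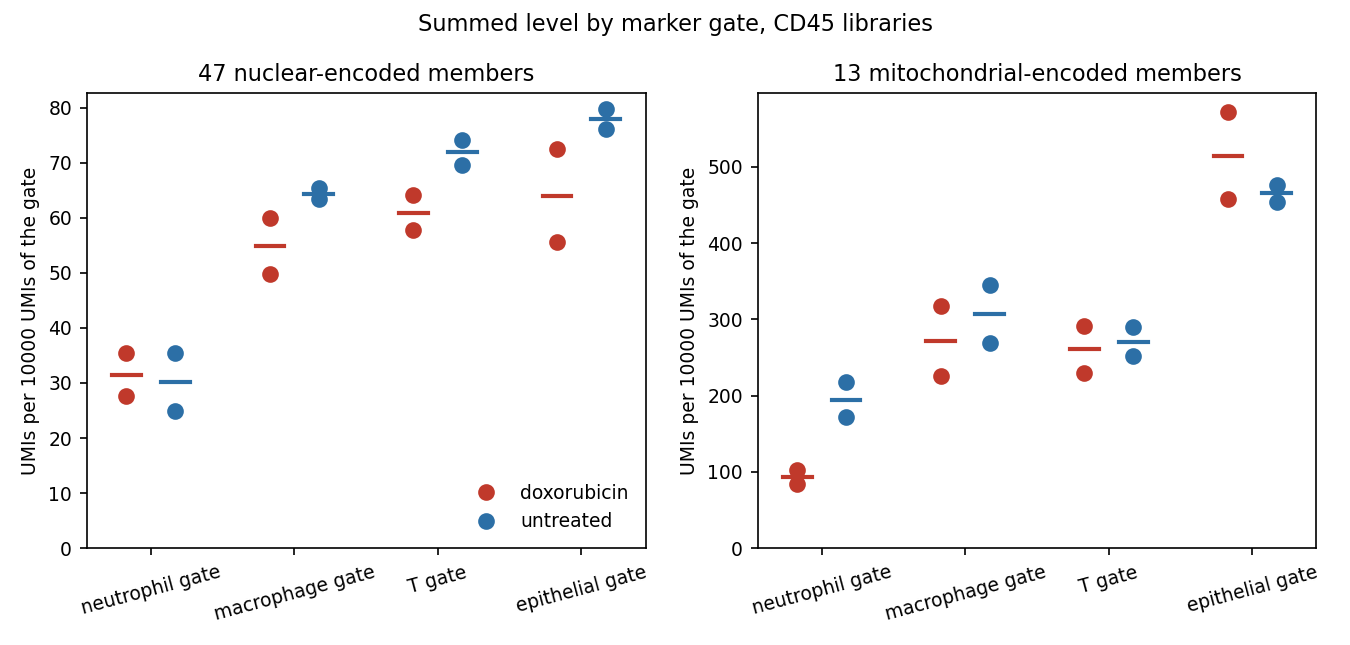
Summed UMIs of the 47 nuclear-encoded (left) and 13 mitochondrial-encoded genes (right) per 10000 UMIs of each marker gate, with 1 point per CD45 library and a bar at the mean of 2, doxorubicin in red and untreated in blue. The neutrophil gate had the lowest level of both sets, and its mitochondrial-encoded points lie at 84.6 and 102.5 after doxorubicin, against 171.6 and 217.6 untreated.

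In the neutrophil gate the nuclear sum was 27.6 and 35.5 per 10000 after doxorubicin, against 35.4 and 24.8 untreated. The mitochondrial-encoded sum averaged 93.6 ± 12.7 per 10000 after doxorubicin and 195 ± 32.5 untreated (SD, n = 2 each). Cells with 20% or more mitochondrial-encoded UMIs were 0.656 and 0.448% of the gate after doxorubicin, against 0.627 and 2.17% untreated. Without them the sum was 74.8 and 86.4 per 10000 after doxorubicin, against 140.9 and 119.5 untreated, and the log2 change of the means was -0.69 in place of -1.06. With all cells of the gate kept, the log2 ratio of nuclear to mitochondrial-encoded UMIs was -1.62 and -1.53 after doxorubicin, against -2.28 and -3.13 untreated. The gap was smaller at the level of the typical cell: the median over cells of the mitochondrial-encoded level was 46.7 and 50.02 per 10000 after doxorubicin, against 67.0 and 67.5 untreated. In the macrophage gate the nuclear sum was 49.8 and 60.0 per 10000 after doxorubicin, against 63.4 and 65.3 untreated, and the mitochondrial-encoded sum was 226.3 and 316.9 against 344.7 and 269.4.

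In the T gate the nuclear sum averaged 60.9 ± 4.60 per 10000 after doxorubicin and 71.9 ± 3.12 untreated (SD, n = 2 each). The mitochondrial-encoded sum of the T gate was 230.1 and 291.4 after doxorubicin, against 290.5 and 251.4 untreated, which overlap. In the epithelial gate the nuclear sum was 55.5 and 72.4 per 10000 after doxorubicin, against 79.8 and 76.1 untreated. The epithelial mitochondrial-encoded sum was 457.5 and 571.7 after doxorubicin, against 476.5 and 454.1 untreated. The 7 mt-Nd genes alone summed to 88.0 and 88.7 in the epithelial gate after doxorubicin, against 82.5 and 74.3 untreated. The epithelial log2 ratio of nuclear to mitochondrial-encoded UMIs was -3.04 and -2.98 after doxorubicin, against -2.58 and -2.58 untreated, the opposite side from the neutrophil gate.

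**Figure D2:**
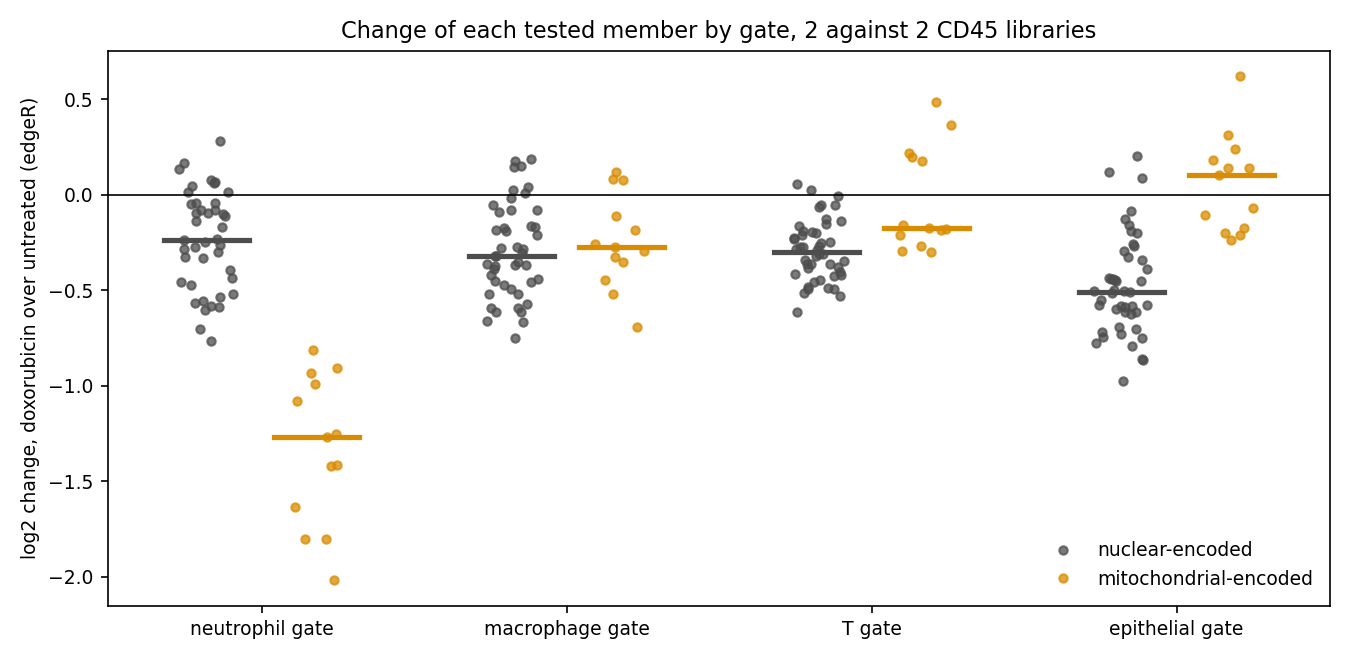
Log2 change of each tested gene, doxorubicin over untreated, from edgeR on 2 against 2 CD45 libraries, by marker gate, with nuclear-encoded genes in grey and mitochondrial-encoded genes in orange and a bar at each median. The 13 mitochondrial-encoded genes of the neutrophil gate all lie below zero with a median of -1.27, and the nuclear genes of the epithelial gate have a median of -0.51.

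The mitochondrial-encoded genes of the neutrophil gate were lower together after doxorubicin. All 13 had a negative log2 change (median -1.27, against 0.03 for all 8568 genes tested), and 12 of 13 were lower in both doxorubicin libraries than in both untreated libraries, as were 11.0% of genes in that gate. The exception was mt-Atp8, which overlapped. One gene passed the test: mt-Nd2, a proton-channel subunit of the membrane arm, fell (log2 change -2.02, SE 0.373, adjusted p = 0.0496 by edgeR). Of all genes in this gate, 0.444% were called lower. The mt-Nd2 level was 2.48 and 2.67 per 10000 after doxorubicin, against 7.93 and 9.73 untreated. Its adjusted p was 0.147 without doxorubicin replicate 2, 0.231 without doxorubicin replicate 1, 0.310 without untreated replicate 2 and 0.0272 without untreated replicate 1. It was 0.112 without cells of 20% or more mitochondrial-encoded UMIs.

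Close to it was mt-Nd1, which encodes a subunit at the quinone chamber, with 3.05 and 4.00 per 10000 after doxorubicin against 8.82 and 11.9 untreated (log2 change -1.80, SE 0.390, adjusted p = 0.0660 by edgeR). Among the other complex I genes, mt-Nd4, a second proton-channel subunit, had 4.80 and 4.96 per 10000 after doxorubicin, against 8.77 and 8.92 untreated. Another channel subunit, mt-Nd5, had 1.23 and 0.831 per 10000 after doxorubicin, against 1.97 and 2.32 untreated. For mt-Nd6, the only one of these 13 genes on the other strand, the level was 0.0691 and 0.0433 per 10000 after doxorubicin, against 0.167 and 0.188 untreated. In each of these genes both doxorubicin libraries lay below both untreated libraries. The smaller membrane subunits mt-Nd3 and mt-Nd4l had log2 changes of -0.93 and -0.99.

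Genes of the other complexes lay on the same side. The complex IV genes mt-Co1, mt-Co2 and mt-Co3 encode its catalytic core. The mt-Co1 level was 22.1 and 26.0 per 10000 in the neutrophil gate after doxorubicin, against 28.8 and 41.9 untreated. The mt-Co2 level was 14.1 and 17.2 per 10000 after doxorubicin, against 29.1 and 40.9 untreated. The log2 changes of mt-Co1, mt-Co2 and mt-Co3 were -0.81, -1.42 and -1.25. For mt-Atp6, the proton-channel subunit of ATP synthase, the level was 13.2 and 18.2 per 10000 after doxorubicin, against 34.9 and 46.4 untreated (log2 change -1.63). The complex III gene mt-Cytb had 5.65 and 7.94 per 10000 after doxorubicin, against 14.5 and 16.1 untreated (log2 change -1.41). None of these genes of complexes III, IV and V passed the test (adjusted p 0.136 to 0.578 by edgeR).

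**Figure D3:**
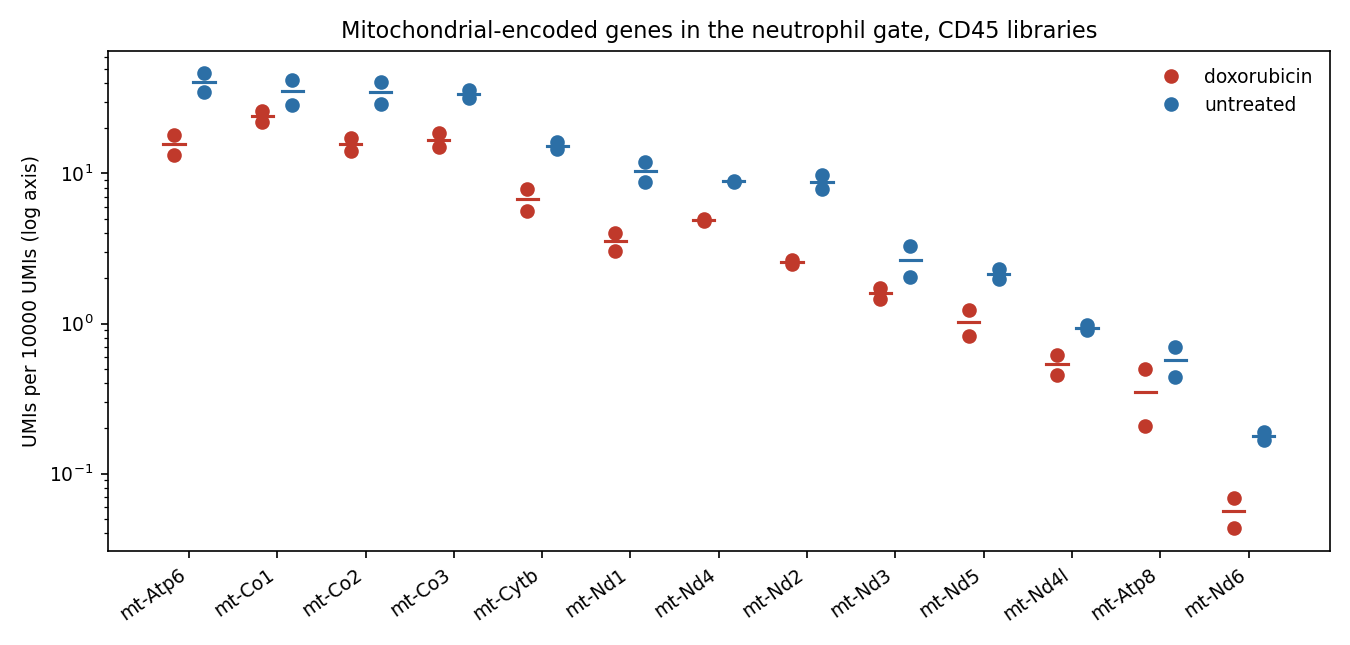
UMIs per 10000 UMIs of the neutrophil gate (log axis) for the 13 mitochondrial-encoded genes, with 1 point per CD45 library, doxorubicin in red and untreated in blue, and a bar at the mean of 2, in order of the untreated mean. The points of the 2 groups do not overlap for 12 genes and overlap for mt-Atp8, which had 0.498 and 0.206 after doxorubicin against 0.695 and 0.440 untreated.

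Several of these genes share bases, and a read in a shared stretch cannot be given to 1 gene. The 3′ end of mt-Atp8 overlaps the 5′ end of mt-Atp6 by 43 bases (GRCm38, chrM:7927-7969, + strand, both coding), and mt-Nd4l overlaps mt-Nd4 by 7 bases (chrM:10167-10173). The stretches below are shown because the annotated end of the shorter gene of each pair lies inside its neighbour. Capitals mark the overlap, with 10 bases of flank on each side.
mt-Atp8/mt-Atp6 (chrM:7917-7979): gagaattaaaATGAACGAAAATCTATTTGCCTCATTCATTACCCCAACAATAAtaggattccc
mt-Nd4l/mt-Nd4 (chrM:10157-10183): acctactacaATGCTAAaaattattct
The genes mt-Nd5 and mt-Nd6 also overlap, by 14 bases on opposite strands. Values of mt-Atp8 and mt-Nd4l are uncertain, and how far their tags are separate from those of mt-Atp6 and mt-Nd4 was not tested. Nuclear copies of mitochondrial sequence add to the uncertainty for all 13 genes. Levels are tags per gene and are compared between libraries and gates, not between genes.

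The difference between gates was tested in a fit of 2 gates of the same 4 libraries, with library as a block and a gate-by-treatment term, a fit added after seeing the data. The change of the neutrophil gate was lower than that of the epithelial gate for mt-Nd2 (difference of log2 changes -1.74, SE 0.410, adjusted p = 0.00225 by edgeR). The same held for mt-Nd1, mt-Nd4l, mt-Nd5, mt-Nd6 and mt-Atp8, so that 6 of 13 were called, beside 2.73% of all genes. Against the macrophage gate, 4 of 13 were called (mt-Nd1, mt-Nd2, mt-Nd5 and mt-Nd6), beside 2.36% of all genes, with mt-Nd1 differing by -1.34 (SE 0.347, adjusted p = 0.00812 by edgeR). Against the T gate none was called, where 0.394% of all genes were. The median difference over all genes was 0.15 against the epithelial gate and 0.11 against the macrophage gate. The genes of complexes III and IV were not among those called in either comparison. The fit used all cells of the gates and was not repeated without cells of high mitochondrial share or without single libraries.

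The neutrophil cells that came along in the CD4/8 libraries did not show the lower mitochondrial-encoded level. There the sum was 219.2 per 10000 in 223 neutrophil-gate cells 48 h after doxorubicin, against 211.6 in 56 untreated cells, with 1 library each. In those libraries mt-Nd1 had 9.45 per 10000 after doxorubicin and 8.87 untreated, and mt-Nd2 had 7.18 after doxorubicin and 7.68 untreated. With this pair added to the fit and the sort as a covariate, mt-Nd2 had a log2 change of -1.56 and an adjusted p of 0.0901 by edgeR, where 0.0848% of all genes were called lower. Of the 9 marker lists of other cell types, 2 summed higher in both doxorubicin libraries in the neutrophil gate of the CD45 sort and 1 lower. Macrophage markers (8 of 8 with a UMI) summed to 2.70 and 3.58 per 10000 after doxorubicin, against 2.32 and 2.17 untreated. Fibroblast markers (8 of 8) summed to 0.124 and 1.14 after doxorubicin, against 0.0834 and 0.0628 untreated, and B markers (6 of 8) to 0.0453 and 0.118 against 0.398 and 0.157. Epithelial markers (8 of 8) overlapped, at 1.95 and 0.525 after doxorubicin against 2.02 and 0.565 untreated. The gate's own 8 markers summed to 131.1 and 111.1 after doxorubicin, against 98.2 and 110.5 untreated, and the median UMIs per cell were 5004 and 3136 against 2992 and 3185. Their part in the result was not tested.

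No nuclear gene was called in the neutrophil gate, where 42 of 47 had enough counts to test. Of these, 33 had a negative log2 change (median -0.24), a direction that does not hold on every scale: the summed level was 0.07 log2 units higher after doxorubicin, and the median was 0.05 without untreated replicate 1. Ndufs7, which carries the iron-sulfur cluster next to ubiquinone, had 0.474 and 0.897 per 10000 after doxorubicin, against 0.769 and 0.251 untreated, with wide overlap. Ndufa3, an accessory subunit, had 1.63 and 1.60 per 10000 after doxorubicin, against 1.39 and 0.911 untreated, and Ndufb3 had 0.720 and 0.815 against 0.778 and 0.377. Ndufa3, Ndufb3 and Ndufs7 had the highest log2 changes of the tested nuclear genes in this gate (0.28, 0.16 and 0.14).

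In the epithelial gate most nuclear genes were lower after doxorubicin while the mitochondrial-encoded sum overlapped. Of 46 nuclear genes tested, 43 had a negative log2 change (median -0.51, against -0.01 for all genes), and 24 were lower in both doxorubicin libraries than in both untreated libraries, as were 19.3% of genes in that gate. None passed the test in the 2 against 2 CD45 libraries by edgeR, where 5.92% of all genes were called. At an unadjusted p under 0.05, 21 of the 59 genes (35.6%) passed, against 24.6% of all genes. DESeq2 called 4 of 59 (Ndufb8, Ndufc2, Ndufs6 and Ndufv2), or 6.78%, below the 10.7% of all genes. Of the mitochondrial-encoded genes, 6 of 13 were negative, with a median of 0.10 that was -0.14 with the CD4/8 pair added. In the CD45 libraries 4 of the 13 were higher in both doxorubicin libraries than in both untreated libraries, as were 38.3% of genes in that gate. None of the 13 was lower in both.

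The CD4/8 libraries also held epithelial-gate cells, 2008 at 48 h after doxorubicin and 622 untreated. Added as a further pair with the sort as a covariate, a step chosen after seeing the data, they gave 3 against 3 libraries. In that fit 16 of 46 nuclear genes fell, beside 11.1% of all genes called lower, and no mitochondrial-encoded gene was called. The 16 were 3 of 7 core subunits (Ndufs8, Ndufv1 and Ndufv2), 12 of 30 accessory subunits (Ndufa5, Ndufa8, Ndufa9, Ndufa12, Ndufab1, Ndufb2, Ndufb4, Ndufb5, Ndufb8, Ndufc1, Ndufs4 and Ndufs6) and 1 of 8 assembly factors (Ndufaf2).

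Of the core subunits, Ndufv2 holds an iron-sulfur cluster of the NADH-oxidising tip. It had 0.665 and 1.09 UMIs per 10000 in the CD45 doxorubicin libraries and 0.939 in the CD4/8 doxorubicin library, against 1.32, 1.43 and 1.53 in the untreated libraries in the same order. All doxorubicin values lay below all untreated values (log2 change -0.84, SE 0.198, adjusted p = 0.0246 by edgeR). Ndufs8, which holds iron-sulfur clusters on the way to ubiquinone, had 0.538, 0.781 and 0.607 per 10000 after doxorubicin, against 0.907, 0.967 and 1.09 untreated (log2 change -0.80, SE 0.177, adjusted p = 0.0205 by edgeR). Ndufv1, which binds NADH and the flavin, had 0.624, 0.694 and 0.773 per 10000 after doxorubicin, against 0.835, 0.841 and 0.946 untreated (log2 change -0.50, SE 0.140, adjusted p = 0.0423 by edgeR). For these core subunits the CD45 groups did not overlap, and the CD4/8 pair, with 1 library per group, lay on the same side. They were named because they were called in this fit, so the separation adds no further support.

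The core subunits Ndufs1, Ndufs3 and Ndufs7 had negative log2 changes and did not pass. Ndufs3, a subunit of the peripheral arm, had 0.518, 0.840 and 0.723 per 10000 after doxorubicin, against 0.854, 0.897 and 1.05 untreated. Ndufs7 had 0.636, 1.17 and 0.881 per 10000 after doxorubicin, against 1.07, 1.15 and 1.21 untreated, where doxorubicin replicate 2 reached the untreated values. Ndufs1, the largest core subunit, had 0.311, 0.343 and 0.249 per 10000 after doxorubicin, against 0.367, 0.310 and 0.334 untreated.

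**Figure D4:**
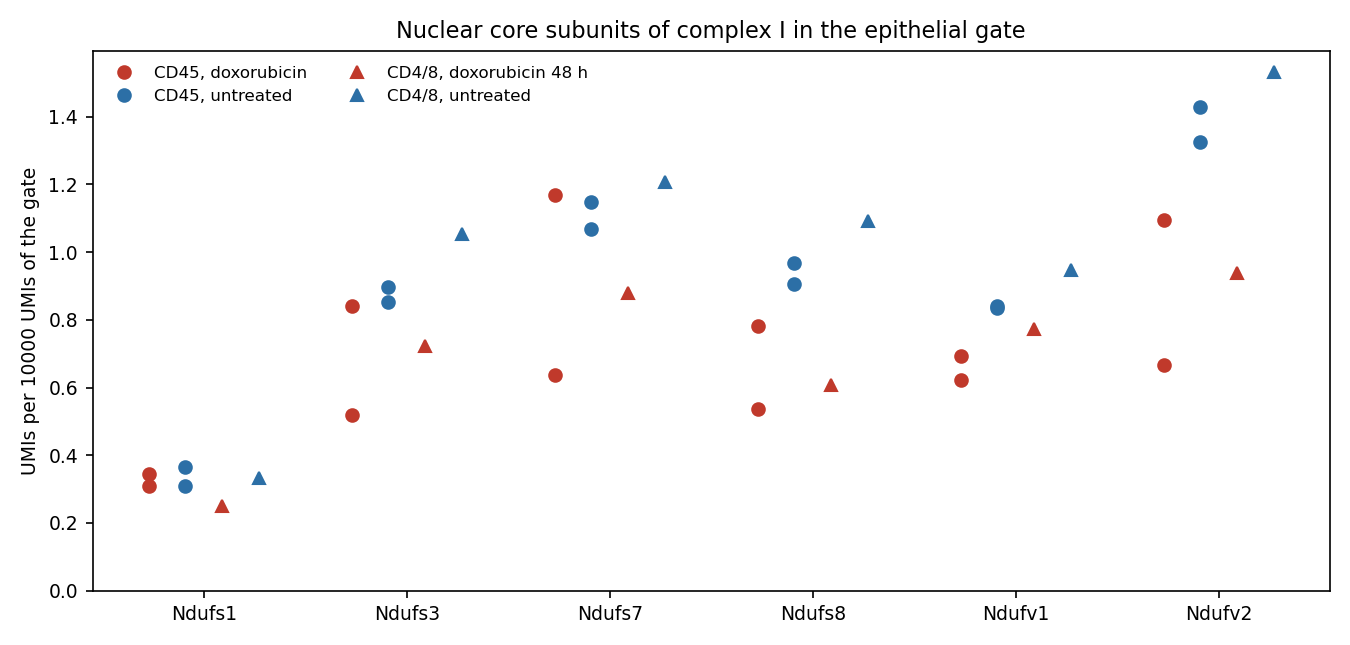
UMIs per 10000 UMIs of the epithelial gate for 6 nuclear core subunits, with circles for CD45 libraries (2 per group) and triangles for CD4/8 libraries (1 per group), doxorubicin in red and untreated in blue. The red points lie below the blue points of the same sort for Ndufs3, Ndufs8, Ndufv1 and Ndufv2, and overlap them in the CD45 libraries for Ndufs1 and Ndufs7.

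Among the accessory subunits, Ndufb8 of the membrane arm had 1.51, 2.16 and 1.93 per 10000 after doxorubicin, against 2.98, 2.80 and 3.05 untreated (log2 change -0.83, SE 0.176, adjusted p = 0.0174 by edgeR). Ndufs6, a zinc-binding subunit of the peripheral arm, had 1.29, 1.70 and 1.23 per 10000 after doxorubicin, against 2.31, 1.97 and 2.21 untreated (log2 change -0.80, SE 0.173, adjusted p = 0.0184 by edgeR). Ndufc1, a small membrane-arm subunit, had 1.27, 1.59 and 0.944 per 10000 after doxorubicin, against 2.25, 1.74 and 1.97 untreated. Ndufab1, the mitochondrial acyl carrier protein, had 1.11, 1.77 and 1.30 per 10000 after doxorubicin, against 2.16, 2.14 and 2.20 untreated. All doxorubicin libraries were below all untreated libraries for each of these subunits, which were likewise named because they were called in this fit.

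The assembly factor Ndufaf2, which binds a late intermediate of the peripheral arm, had 0.396, 0.315 and 0.333 per 10000 after doxorubicin, against 0.664, 0.393 and 0.560 untreated, with 1 doxorubicin library just above the lowest untreated library. Ndufa4 had 4.73, 6.80 and 4.86 per 10000 after doxorubicin, against 6.86, 6.64 and 6.78 untreated, and did not pass (adjusted p = 0.0892 by edgeR). The accessory subunit Ndufa1 was on the other side in the CD45 libraries, with 1.73 and 1.69 per 10000 after doxorubicin against 1.47 and 1.26 untreated, and had 0.957 against 1.10 in the CD4/8 libraries (log2 change -0.03 over all 3 pairs). Ndufaf5, which modifies Ndufs7, had the lowest log2 change in the CD45 libraries (-0.97) at a level of 0.0245 and 0.0556 per 10000 after doxorubicin, against 0.0789 and 0.0606 untreated.

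The mitochondrial-encoded genes of the epithelial gate with the highest log2 changes in the CD45 libraries were mt-Atp8, mt-Nd4l and mt-Nd5. The mt-Nd5 level was 5.47 and 3.97 per 10000 after doxorubicin, against 3.76 and 3.24 untreated (log2 change 0.24). The mt-Nd4l level was 3.37 and 2.83 per 10000 after doxorubicin, against 1.80 and 2.53 untreated (log2 change 0.31). The mt-Atp8 level was 2.58 and 1.01 per 10000 after doxorubicin, against 1.29 and 0.776 untreated, with overlap (log2 change 0.62). None passed, and the sign of mt-Atp8 and mt-Nd5 turned without doxorubicin replicate 1 (log2 changes -0.26 and -0.05). Complex IV's mt-Co1 had 98.6 and 123 per 10000 after doxorubicin, against 80.3 and 88.4 untreated.

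Several other values moved with the epithelial result. The median UMIs per cell in the epithelial gate of the CD45 libraries were 27544 and 11845 after doxorubicin, against 36602 and 33308 untreated. The 8 macrophage markers, all with a UMI there, summed to 3.22 and 4.51 per 10000 after doxorubicin, against 1.17 and 1.34 untreated, and to 4.10 against 0.903 in the CD4/8 pair. Of the 9 marker lists of other cell types, 3 summed higher in both doxorubicin libraries of the CD45 sort (macrophage, neutrophil and mast) and 1 lower (dendritic). Neutrophil markers (8 of 8 with a UMI) summed to 1.28 and 0.779 per 10000 after doxorubicin, against 0.481 and 0.531 untreated, and to 0.280 against 0.160 in the CD4/8 pair. Mast markers (5 of 8 with a UMI) summed to 3.28 and 3.61 after doxorubicin, against 2.37 and 2.11 untreated, and to 2.65 against 1.55 in the CD4/8 pair. The gate's own markers summed to 88.1 and 75.9 after doxorubicin, against 66.0 and 68.6 untreated. Cells with 20% or more mitochondrial-encoded UMIs were 7.97 and 8.97% of the gate after doxorubicin, against 10.2 and 3.85% untreated. Their part in the result was not tested.

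Nuclear genes of the other respiratory complexes were lower on the same side in the epithelial gate. All 18 ATP synthase genes tested had a negative log2 change in the CD45 libraries (median -0.70), as did 9 of 9 of complex III (median -0.61), 11 of 11 of complex IV (median -0.54) and 4 of 4 of complex II (median -0.50), beside 50.4% of all genes, and none was called. Of 15 genes for expression of the mitochondrial genome, 7 were negative (median 0.00), and of 9 assembly factors outside the Nduf names, 5 were negative (median -0.05). With the CD4/8 pair, 11 of 18 ATP synthase genes, 5 of 9 of complex III, 5 of 11 of complex IV and 2 of 4 of complex II fell, beside the 11.1% of all genes called lower in that fit, and no assembly factor outside the Nduf names was called. Examples are Atp5b, the catalytic beta subunit of ATP synthase (log2 change -0.80, adjusted p = 0.0117 by edgeR), Cyc1, cytochrome c1 of complex III (-0.76, adjusted p = 0.0281), and Sdhd, a membrane anchor of complex II (-0.87, adjusted p = 0.0222). Of the 15 genes for mitochondrial gene expression, 2 fell and 1 rose in that fit. This is near the share over all genes, of which 11.1% were called lower and 8.66% higher. Tfam, the packaging and transcription factor of mitochondrial DNA, fell (-0.58, adjusted p = 0.0335 by edgeR), as did Slirp, which stabilises mitochondrial mRNA (-0.72, adjusted p = 0.0158). Polg2, the accessory subunit of the mitochondrial DNA polymerase, rose (0.80, adjusted p = 0.0370 by edgeR). The lower side was not particular to the epithelial gate. For ATP synthase and complexes III, IV and II in that order, the T gate of the CD45 libraries had 18 of 18, 9 of 9, 11 of 11 and 4 of 4 negative. The macrophage gate had 17 of 18, 9 of 9, 10 of 11 and 2 of 4. Of all genes, 46.5% and 49.8% were negative in these gates. The neutrophil gate had 13 of 18, 6 of 9, 8 of 11 and 2 of 4, beside 48.2%.

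Promoters were compared because many of these nuclear genes lay on the same side in the epithelial gate, as they did in the T and macrophage gates. Of the 47 nuclear genes, 40 matched a RefSeq promoter (GRCm38.p6, 250 bases before to 50 after the start). The motif of NRF1, a regulator of respiratory genes (GCGC, any base, then TGCGC), was found on either strand in 22.5% of them, against 5.19% of 27025 genes. A gene counted when any of its promoters matched, and the 27025 were not limited to genes expressed here. The motif AAGATGGC, as bound by YY1, was found in 20%, against 3.19%. Neither motif contains the other. Of the 16 genes that fell in the epithelial gate, 4 held the NRF1-type and 5 the YY1-type motif, and of the 24 other matched genes, 5 and 3 did. The promoters below are from a gene that fell with both motifs, a gene that fell with the YY1-type motif, a core subunit that fell with none, and Ndufa1, which did not pass and holds none. Capitals mark a match to either motif, and each is printed along the gene's strand.
Ndufs6 (chr13:73328433-73328732, minus strand): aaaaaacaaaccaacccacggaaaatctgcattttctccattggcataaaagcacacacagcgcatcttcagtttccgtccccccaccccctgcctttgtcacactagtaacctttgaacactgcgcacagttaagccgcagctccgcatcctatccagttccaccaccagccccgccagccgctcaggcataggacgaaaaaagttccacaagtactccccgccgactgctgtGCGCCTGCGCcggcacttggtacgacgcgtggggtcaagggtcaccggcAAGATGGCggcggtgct
Ndufb8 (chr19:44555393-44555692, minus strand): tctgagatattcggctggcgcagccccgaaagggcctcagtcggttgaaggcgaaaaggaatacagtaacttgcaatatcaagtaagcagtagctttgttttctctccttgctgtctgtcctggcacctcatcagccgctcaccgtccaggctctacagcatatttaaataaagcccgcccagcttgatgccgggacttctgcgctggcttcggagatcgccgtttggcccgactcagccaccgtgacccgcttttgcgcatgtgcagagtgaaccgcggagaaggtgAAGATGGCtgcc
Ndufs8 (chr19:3912725-3913024, minus strand): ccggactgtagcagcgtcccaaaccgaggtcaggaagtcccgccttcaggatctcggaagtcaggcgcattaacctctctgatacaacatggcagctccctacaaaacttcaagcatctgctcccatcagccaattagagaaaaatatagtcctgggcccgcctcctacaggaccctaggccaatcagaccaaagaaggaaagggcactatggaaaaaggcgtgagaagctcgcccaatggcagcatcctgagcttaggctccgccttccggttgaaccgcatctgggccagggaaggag
Ndufa1 (chrX:37191189-37191488, minus strand): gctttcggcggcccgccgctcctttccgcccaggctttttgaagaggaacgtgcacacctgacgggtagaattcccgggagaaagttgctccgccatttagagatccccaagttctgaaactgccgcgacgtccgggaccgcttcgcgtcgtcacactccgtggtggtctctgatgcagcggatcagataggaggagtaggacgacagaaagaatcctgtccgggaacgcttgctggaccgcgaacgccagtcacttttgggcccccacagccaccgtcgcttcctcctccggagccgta
A match describes letters in this window and is not evidence of binding.

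In the macrophage gate most nuclear genes were on the lower side after doxorubicin, and a few passed once the CD4/8 pair was added. In the CD45 libraries 39 of 46 nuclear genes had a negative log2 change (median -0.32, against 0.00 for all genes), 22 were lower in both doxorubicin libraries (24.6% of all genes were) and none was called by edgeR, where 6.25% of all genes were. At an unadjusted p under 0.05, 11 of 59 (18.6%) passed, below the 22.8% of all genes, and DESeq2 called 1 of 59, Ndufs4, against 8.24% of all genes. With 3 pairs, 4 genes fell (Ndufa9, Ndufs4, Ndufs8 and Ndufv2), beside 2.6% of all genes called lower. Ndufs4, a peripheral-arm subunit whose loss in mice gives a Leigh-like disease, had 0.711, 0.725 and 0.686 per 10000 after doxorubicin, against 1.10, 1.09 and 0.864 untreated (log2 change -0.57, adjusted p = 0.0401 by edgeR). Ndufs8 had 0.522, 0.743 and 0.625 after doxorubicin, against 0.888, 1.18 and 0.979 untreated (log2 change -0.73, adjusted p = 0.0414 by edgeR). In both, all doxorubicin values were below all untreated values, which adds no further support to calls made on the same libraries.

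Ndufv2 in the macrophage gate had 0.736, 0.822 and 0.844 per 10000 after doxorubicin, against 1.07, 1.22 and 1.12 untreated. Ndufa9 had 0.389, 0.446 and 0.496 after doxorubicin, against 0.577, 0.620 and 0.685 untreated. The core subunit Ndufs1 was on the other side, with 0.432 and 0.370 per 10000 in the CD45 libraries after doxorubicin against 0.352 and 0.328 untreated (log2 change 0.18), as were the assembly factors Ndufaf4 and Ndufaf7 (0.19 and 0.15). The lowest mitochondrial-encoded gene, mt-Nd2, had 6.30 and 7.77 per 10000 after doxorubicin, against 14.05 and 7.83 untreated, so that untreated replicate 1 stood apart. In the macrophage gate, 2 of 9 marker lists of other cell types summed higher in both doxorubicin libraries and 2 lower (B and endothelial). Epithelial markers (8 of 8 with a UMI) summed to 1.16 and 1.06 per 10000 after doxorubicin, against 0.936 and 0.361 untreated, and to 2.78 against 0.685 in the CD4/8 pair. Fibroblast markers (8 of 8) summed to 0.179 and 0.753 after doxorubicin, against 0.0427 and 0.0635 untreated. Neutrophil markers (8 of 8) overlapped, at 4.35 and 1.73 after doxorubicin against 1.63 and 1.88 untreated. Their part in the result was not tested.

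In the T gate nearly all nuclear genes were on the lower side and none passed. Of 46 tested, 44 had a negative log2 change in the CD45 libraries (median -0.30, against 0.03 for all genes), and 27 were lower in both doxorubicin libraries, as were 13.7% of all genes. The edgeR test called 0.0% of all 10697 genes in this gate, with 683 at an unadjusted p under 0.05 and 33 called by DESeq2. Of the 59 genes described here, 2 had an unadjusted p under 0.05 and DESeq2 called 0. The lowest was Ndufb8, with 1.24 and 1.85 per 10000 after doxorubicin against 2.23 and 2.29 untreated (log2 change -0.62). Ndufa4 had 3.80 and 3.54 after doxorubicin, against 5.53 and 4.52 untreated (-0.51). With the CD4/8 pair, planned for this gate, 46 of 46 were negative (median -0.35) and 24 of 59 (40.7%) had an unadjusted p under 0.05, against 11.5% of all genes, and again none was called, with 0.0% of all genes called lower.

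The highest log2 changes in the T gate were mitochondrial-encoded: mt-Nd6 (0.49), mt-Atp8 (0.37) and mt-Co1 (0.22), none past the test. The sign of mt-Atp8 turned without doxorubicin replicate 1 (-0.50). The mt-Co1 level was 44.5 and 59.2 per 10000 after doxorubicin, against 41.2 and 43.9 untreated. With the CD4/8 pair the log2 change of mt-Co1 was -0.07. Of the 9 marker lists of other cell types, 4 summed higher in both doxorubicin libraries of the T gate (neutrophil, dendritic, NK and mast) and 0 lower. Neutrophil markers (8 of 8 with a UMI) summed to 2.59 and 4.90 per 10000 after doxorubicin, against 0.591 and 1.31 untreated, and dendritic markers (8 of 8) to 1.98 and 1.55 against 0.608 and 0.717. Their part in the result was not tested.

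The make-up of the mitochondrial-encoded UMIs also differed. The share of mt-Co1 among them was 26.2 and 25.4% in the neutrophil gate after doxorubicin, against 16.8 and 19.2% untreated. It was 23.7 and 24.0% against 17.6 and 20.1% in the macrophage gate, 19.3 and 20.3% against 14.2 and 17.4% in the T gate, and 21.5 and 21.6% against 16.8 and 19.5% in the epithelial gate. In each gate both doxorubicin libraries were above both untreated libraries, with no test. The gates come from the same 4 libraries and are not separate observations, and mt-Co1 is 1 of 13 shares. In the CD4/8 pair its share was 13.5% at 48 h against 13.1% untreated in the T gate and 15.3 against 14.3% in the epithelial gate. It was 17.9 against 16.5% in the macrophage gate and 18.6 against 14.7% in the neutrophil gate. The share of mt-Atp8 overlapped between the groups: in the T gate it was 0.501 and 0.163% after doxorubicin, against 0.247 and 0.192% untreated, with replicate 1 the higher in both groups.

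The CD4/8 libraries held 1 library per arm, so their differences have no replicate check and intervals at 95% confidence cover counting error only. At 48 h after doxorubicin both genomes were lower in the epithelial, T and macrophage gates, while the neutrophil gate of these libraries had a nuclear sum of 28.1 per 10000 after doxorubicin and 16.4 untreated and, as given above, no lower mitochondrial-encoded sum. The epithelial nuclear sum was 56.2 per 10000 after doxorubicin and 79.0 untreated, a ratio of 0.712 (exact interval 0.708 to 0.716), and the mitochondrial-encoded sum was 477.7 and 575.2, a ratio of 0.830 (0.829 to 0.832). The T-gate nuclear sum was 62.5 after doxorubicin and 72.4 untreated, a ratio of 0.863 (0.858 to 0.868), and the mitochondrial-encoded sum was 293.3 and 400.3, a ratio of 0.733 (0.731 to 0.735). The macrophage ratio was 0.896 (0.880 to 0.912) for the nuclear and 0.622 (0.618 to 0.626) for the mitochondrial-encoded sum. All 13 mitochondrial-encoded genes were lower after doxorubicin in each of the epithelial, T and macrophage gates, and 45 of 47 nuclear genes in the epithelial gate, 43 of 47 in the T gate and 42 of 46 in the macrophage gate. Of all genes, 39.9%, 31.9% and 44.1% were lower in these gates, named in the same order.

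In the 4 antibody arms the summed epithelial nuclear level was nearer to that of untreated tumours than to that at 48 h. It was 82.8 per 10000 with anti-PD1, 73.0 with anti-CTLA4, 74.1 with both antibodies and 82.0 with IgG, against 56.2 at 48 h after doxorubicin and 79.0 untreated. With IgG, 46 of 47 nuclear genes were above their level at 48 h, and the sums had a ratio of 1.46 (1.45 to 1.47), where 55.5% of all genes were lower. Single genes varied in this. Ndufv2 had 1.43, 1.09, 1.10 and 1.40 per 10000 in the arms with anti-PD1, anti-CTLA4, both antibodies and IgG, against 0.939 at 48 h and 1.53 untreated, so that the arms with anti-CTLA4 and both antibodies were nearer to 48 h. Ndufc1 had 1.93, 1.92, 1.93 and 2.14 in those arms, against 0.944 at 48 h and 1.97 untreated. Ndufab1 had 2.40, 2.13, 2.05 and 2.59, against 1.30 at 48 h and 2.20 untreated. The lowest of the 4 arms was above the 48 h value for each of these genes. They had been called lower in a fit that included this 48 h library, so their place above it adds no further support. The epithelial gate held 1861, 384, 182 and 374 cells in these arms, against 2008 at 48 h and 622 untreated.

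**Figure D5:**
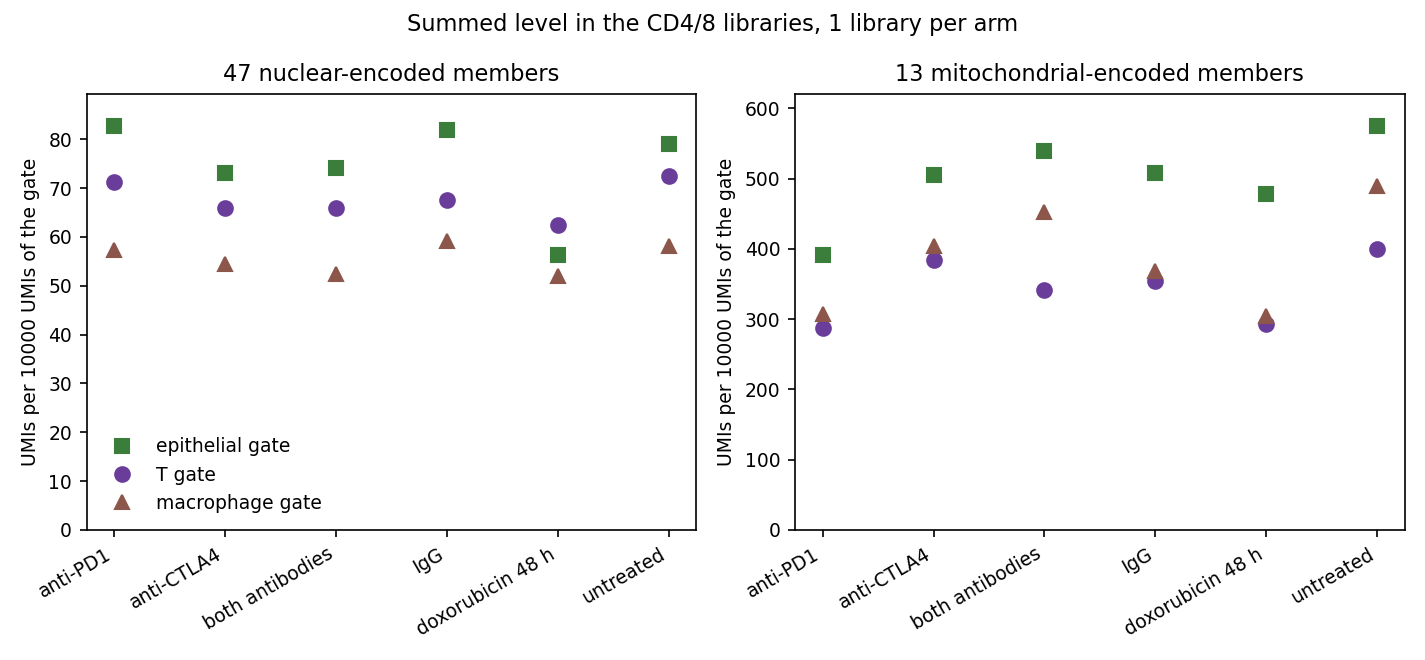
Summed UMIs of the 47 nuclear-encoded (left) and 13 mitochondrial-encoded genes (right) per 10000 UMIs of the epithelial (squares), T (circles) and macrophage (triangles) gates in the 6 CD4/8 libraries, 1 library per arm, with the untreated library at the right. The epithelial nuclear level is lowest at 48 h after doxorubicin (56.2), and the mitochondrial-encoded level with anti-PD1 is below that with IgG in each gate plotted.

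With anti-PD1 alone the mitochondrial-encoded level was below that with IgG in the T, epithelial and macrophage gates. In the T gate the mitochondrial-encoded sum was 286.9 per 10000 with anti-PD1, 384.9 with anti-CTLA4, 341.1 with both antibodies and 354.2 with IgG. The arm with both antibodies, which also held anti-PD1, was above IgG in the epithelial gate (539.2 against 507.6) and the macrophage gate (452.1 against 368.9). The ratio of anti-PD1 to IgG was 0.810 (0.808 to 0.812) in the T gate, 0.771 (0.769 to 0.773) in the epithelial gate and 0.832 (0.826 to 0.838) in the macrophage gate. All 13 genes were lower with anti-PD1 in each of these gates, where 43.8%, 51.1% and 57.3% of all genes were. The nuclear sums differed less, with anti-PD1 to IgG ratios of 1.05, 1.01 and 0.969. The lowest ratio of anti-PD1 to IgG in the T gate was that of mt-Nd3, a membrane subunit (0.484, interval 0.474 to 0.494). Its level was 4.61 per 10000 in the T gate with anti-PD1, 10.3 with anti-CTLA4, 8.22 with both antibodies and 9.52 with IgG, against 4.99 at 48 h and 6.83 untreated. With 1 library per arm, an effect of the antibody and of the library cannot be told apart.

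In the T gate the nuclear sum was 71.3 per 10000 with anti-PD1, 66.0 with anti-CTLA4, 65.9 with both antibodies and 67.6 with IgG, against 62.5 at 48 h and 72.4 untreated. Ndufa4 had the lowest ratio of both antibodies to IgG among the nuclear genes. It was at 4.47 per 10000 with anti-PD1, 3.40 with anti-CTLA4, 3.14 with both antibodies and 4.20 with IgG, against 4.28 at 48 h and 5.57 untreated. The ratio was 0.748 (0.730 to 0.767), while the nuclear genes in that comparison had a median log2 ratio of -0.02. It was singled out after its values were seen. The T gate held 3383, 2727, 3088 and 2883 cells in these arms, against 4333 at 48 h and 2694 untreated.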

How the data were processed

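Tumours were digested with a GentleMACS, sorted magnetically for CD45 or CD4/8 and made into Chromium Single Cell 3′ libraries, per the labels' protocols. The matrices as deposited contain unnormalised UMI counts of each gene in each cell, made with Cell Ranger 6.0.0 on GRCm38/mm10, per the file headers and the submitters' processing notes. Their rows carry no gene names. Names were taken from a pooled tumour table of the same series with 32285 genes, deposited as counts. The order was checked by correlating row totals across genes, which are not independent replicates: r was between 0.954 and 0.984 unshifted and no higher than 0.354 after any shift of 1 to 50 rows.

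Of 34 samples, 10 sorted libraries were used. The pooled tumour table does not say which tumour a cell came from, so it entered no comparison. A bulk table has 12 columns matching no sample and was not used, and chromatin libraries were not analysed here.

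Gates used 8 markers per list, and no doublet caller was run. Gates with 30 or more cells in each of 4 CD45 libraries were tested: neutrophil, macrophage, T and epithelial. The NK and dendritic gates had too few. Counts were summed per gate and library and tested two-sided with edgeR 4.0.16 in R 4.3.3 (TMM scaling, filterByExpr, robust quasi-likelihood F test), with Benjamini-Hochberg adjustment over all genes at 0.05. The fits were tested on simulated data. The filter left 55 of the 60 genes in the neutrophil gate and 59 in the other 3 gates. Ndufa4l2 passed it in no gate, and Ndufaf1, Ndufaf4, Ndufaf5 and Ndufaf6 not in the neutrophil gate. Counts of genes whose groups do not overlap used genes with 10 or more UMIs in 2 libraries. Levels are UMIs per 10000 UMIs of a gate. CD4/8 levels and ratios carry exact Poisson-based 95% intervals (scipy 1.17.1, Python 3.11.15) with no p, and cover counting error only.

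The genes and the 8 lists of other mitochondrial genes were chosen with earlier results of these data known. Named were the mitochondrial-encoded genes, the 7 nuclear core subunits, called genes, the 3 highest and 3 lowest changes per gate and called genes of the other lists, of which 1 is not reported here. The neutrophil, macrophage and epithelial fits with the CD4/8 pair, the median over cells without mitochondrial-encoded UMIs and the fit between gates were added after seeing the data. Alternatives were RLE scaling, DESeq2 1.42.0, no filter on low counts, limits on mitochondrial share, a stricter gate (4 markers, 3 more than any other list), a looser gate (2 markers), totals without mitochondrial-encoded genes, a replicate block and leaving out each library.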

Additional observations from a re-analysis of the deposited data

Results flagged for a closer look

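For 10 results the change after doxorubicin differed between 2 gates of the same 4 CD45 libraries, in an edgeR fit with library as a block that was added after seeing the data. In each, the change in the neutrophil gate was the lower. Between the neutrophil and macrophage gates the log2 changes differed by -1.34 for mt-Nd1 (SE 0.347, adjusted p = 0.00812), -1.25 for mt-Nd2 (SE 0.342, adjusted p = 0.0162), -1.09 for mt-Nd5 (SE 0.331, adjusted p = 0.0455) and -1.84 for mt-Nd6 (SE 0.564, adjusted p = 0.0476), by edgeR. Between the neutrophil and epithelial gates they differed by -1.52 for mt-Nd1 (SE 0.419, adjusted p = 0.0168), -1.74 for mt-Nd2 (SE 0.410, adjusted p = 0.00225), -1.37 for mt-Atp8 (SE 0.373, adjusted p = 0.0144), -1.32 for mt-Nd4l (SE 0.367, adjusted p = 0.0178), -1.45 for mt-Nd5 (SE 0.378, adjusted p = 0.00945) and -1.86 for mt-Nd6 (SE 0.535, adjusted p = 0.0257), by edgeR. The share of all genes called was 2.36% in the first and 2.73% in the second comparison. No nuclear gene of complex I was called in either. The untreated neutrophil gates held 319 and 92 cells, fewer than the 762 and 1787 after doxorubicin. In those untreated gates mt-Nd6 made up 0.0972 and 0.0866% of the mitochondrial-encoded UMIs, so its differences rest on few UMIs.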

How the results depend on the processing

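Of the 60 genes, 1 was called in the neutrophil gate. That count was 0 with RLE scaling, with cells under 20% or under 10% mitochondrial UMIs, with a gate of 2 markers, with totals without mitochondrial-encoded genes and with the CD4/8 pair, 2 with the replicate block, 3 with no filter on low counts, 5 with a gate of 4 markers and 6 with DESeq2. Leaving out 1 library gave 0 to 2. Of all genes, 0.479% were called, 1.55% with the block, 1.29% with no filter, 1.18% with a gate of 4 markers and 1.62% with DESeq2. The adjusted p of mt-Nd2 lay between 3.66e-05 (DESeq2) and 0.310 (without untreated replicate 2), and all 13 mitochondrial-encoded genes had a negative change under every setting run. In the macrophage gate (0 called) the count was 1 with DESeq2, 1 with the replicate block, 4 with no filter and 4 with the CD4/8 pair, beside 8.24, 8.05, 8.83 and 6.7% of all genes. In the epithelial gate (0 called) it was 4 with DESeq2, 7 with the replicate block, 10 with no filter and 16 with the CD4/8 pair (6.78, 11.9, 16.7 and 27.1% of those tested), beside 10.7, 15.3, 10.6 and 19.8% of all genes. In the T gate it was 0 under all settings run. In the whole libraries (1 called) it was 0 with RLE scaling, 0 with totals without mitochondrial-encoded genes, 3 with the replicate block, 13 with no filter, 17 with DESeq2 (8.55, 8.2 and 15.5% of all genes for the last 3) and 0 to 1 leaving out a library. Replicate numbers pair only 2 libraries a group. The correlations of same-numbered deviations were all positive, at 0.042 (neutrophil), 0.151 (macrophage), 0.381 (T) and 0.264 (epithelial). The main fits did not take the numbers as pairs, and the fits with the replicate block are given above as an alternative. Whether same-numbered libraries share a batch was not tested.

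The neutrophil mitochondrial-encoded sum (log2 change -1.06) was -0.69 with cells under 20% mitochondrial UMIs, -0.48 as a median over cells and -1.38 with a gate of 4 markers, and -1.20 to -0.88 leaving out a library. The neutrophil nuclear sum (0.07) ranged from -0.17 to 0.34 leaving out a library, with -0.13 without doxorubicin replicate 2. The macrophage nuclear sum (-0.23) ranged from -0.37 to -0.10 and the mitochondrial-encoded sum (-0.18) from -0.44 to 0.046, with 0.012 without untreated replicate 1. The T mitochondrial-encoded sum (-0.06) ranged from -0.24 to 0.11, with 0.05 without untreated replicate 1. The epithelial nuclear sum (-0.29) ranged from -0.49 to -0.11 and the mitochondrial-encoded sum (0.15) from -0.024 to 0.30. For the T gate of the CD4/8 libraries, the nuclear log2 ratio (-0.21) was -0.23 as a median over cells and -0.23 without mitochondrial-encoded UMIs in the denominator, and the mitochondrial-encoded one (-0.45) was -0.44 with cells under 20% mitochondrial UMIs and -0.44 as a median over cells.

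Of 725 alternatives for 52 single-gene results, 666 kept direction and side of the threshold, 33 gained a call, 15 lost one and 11 turned sign. In the neutrophil gate, Ndufs7 was -0.0051 with a gate of 2 markers and -0.31 to 1.09 leaving out a library, with -0.21 without untreated replicate 2. Ndufb3 was -0.042 with the CD4/8 pair and -0.050 to 0.68 leaving out a library. In the T gate, mt-Co1 was -0.071 with the CD4/8 pair, Ndufs7 -0.42 to 0.0061 and mt-Atp8 -0.50 to 0.91 leaving out a library. In the epithelial gate, mt-Nd5 was -0.0072 with the CD4/8 pair and -0.049 to 0.48 leaving out a library, and mt-Atp8 -0.26 to 1.15. The cause of these shifts was not tested. A group left with 1 library is assumed to vary like the other. The thin untreated neutrophil gates and the doxorubicin epithelial gate of 113 cells limit the precision of low genes.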

Other observations

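B cells, gated by the same rule, were found almost only in untreated CD45 libraries (1 and 4 cells after doxorubicin, 30 and 29 untreated). Their untreated nuclear sums were 38.5 and 43.4 per 10000 and their mitochondrial-encoded sums 503.3 and 412.6, so the ratio of mitochondrial-encoded to nuclear UMIs was above that of the T gate, which had 74.1 and 69.7 nuclear and 290.5 and 251.4 mitochondrial-encoded per 10000 in the same libraries. NK cells of the untreated libraries (32 and 51 cells) had nuclear sums of 60.1 and 60.6 and mitochondrial-encoded sums of 316.4 and 283.4 per 10000. Dendritic cells of the untreated libraries (46 and 10 cells) had nuclear sums of 65.4 and 51.6 and mitochondrial-encoded sums of 177.1 and 258.9.

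In the pooled tumour table, which joins cells of tumours that cannot be told apart there, the nuclear and mitochondrial-encoded sums were 54.0 and 198.8 per 10000 in the neutrophil gate, 67.4 and 440.5 in the macrophage gate, 67.8 and 375.6 in the T gate and 70.7 and 547.7 in the epithelial gate. The neutrophil gate had the lowest sum of both sets there too. No cell of that table had 20% or more mitochondrial-encoded UMIs. Ndufa4l2, a relative of Ndufa4 known from responses to low oxygen, had 0.0219 and 0.158 per 10000 in whole CD45 libraries after doxorubicin, against 0.0422 and 0.0607 untreated. It did not pass the low-count filter of the main fit in any gate.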
